A study of Bos taurus with 10 samples.

Results

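The proteins that start, extend and end translation on the cytosolic ribosome were followed through the epithelial transcriptome of the bovine oviductal isthmus, the segment nearest the uterus. The set was proposed with earlier results of these data known, and its members were then taken by symbol, without regard to their values: every feature whose name begins with EIF1 to EIF6, EEF1, EEF2 or GSPT, plus ETF1, without the EIF2AK kinases. That rule gave 62 of the 24596 features. Of these, 58 have a plain symbol and 4 are numbered copies (EEF1A1_1, EEF1A1_2, EIF1_1 and EIF1_2), which are described apart because reads of near-identical loci may be divided among such copies. The pregnant group holds 5 libraries from heifers (Bos taurus) that had been given 50 presumptive zygotes made in vitro. The cyclic group holds 5 libraries from heifers given a sham transfer. All 10 are poly(A)-selected libraries of oviduct epithelial cells, and the question is whether the presence of embryos was accompanied by a difference in these transcripts. The labels used here give no breed, age or day of collection, and do not tie libraries to animals. n therefore counts libraries, and p-values measure the spread between them, which may be technical.

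Translation starts when the small ribosomal subunit, held open by eIF1 and eIF1A and loaded by eIF3, takes up the initiator tRNA that eIF2 carries in its GTP form. The complex is brought to the capped 5′ end of an mRNA by eIF4F, made of the cap-binding protein eIF4E, the scaffold eIF4G and the helicase eIF4A, and scans to the start codon. eIF4E is held back by the 4E-binding proteins, which mTORC1 inactivates by phosphorylation, and eIF2 is recycled by eIF2B. eIF5B then joins the large subunit, eEF1A delivers each aminoacyl-tRNA, eEF2 moves the ribosome along, eIF5A helps it past difficult stretches, and eRF1 with eRF3 ends the chain. Most of this control acts on the proteins, so transcript levels describe supply, not activity. In the oviduct the epithelium secretes glycoproteins into the fluid around the embryo, which makes protein synthesis a main task of its secretory cells.

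The values are RPKM (reads relative to gene length and to the library total), so levels can be set side by side between genes. Library totals recovered from the table were 17.0 to 26.1 M reads (M, mega) in pregnant and 9.71 to 18.8 M reads in cyclic libraries. The lowest total belonged to cyclic library 4. On the first principal component of all tested features, which held 38.1% of the variance, cyclic libraries 1, 2 and 5 scored -25.7 to -10.6. Cyclic library 4 (-55.7) and cyclic library 3 (10.5) lay apart on either side of them. Pregnant library 4 (-6.47) lay below the other pregnant libraries (21.6 to 29.3). The summed RPKM of 7 secretory epithelial markers was 1848 to 4470 in pregnant and 5937 to 12083 in cyclic libraries, without overlap. Most of that sum came from 2 genes of secreted products, OVGP1 (mean 2050 RPKM in pregnant and 5760 RPKM in cyclic libraries) and CLU (mean 500 RPKM in pregnant and 1651 RPKM in cyclic libraries). PAX8, a transcription factor of these cells, averaged 88.2 RPKM in pregnant and 87.5 RPKM in cyclic libraries, and EPCAM, an epithelial adhesion protein, 329.7 RPKM in pregnant and 365 RPKM in cyclic libraries. The remaining markers of this list, KRT8, KRT18 and MUC1, all had lower means in pregnant libraries. They averaged 97.4, 117.9 and 19.1 RPKM in pregnant libraries, against 167.6, 163.9 and 62.9 RPKM in cyclic ones. For 7 ciliated cell markers the sum was 563 to 676 in pregnant and 639 to 1004 in cyclic libraries, with CCDC39 alone of the 7 higher on average in pregnant libraries (78.6 RPKM, against 42.3 RPKM in cyclic ones), and for 7 stromal fibroblast markers it was 13.7 to 34.1 in pregnant and 33.0 to 75.8 in cyclic libraries. Both of these ranges overlapped slightly. Sums also overlapped for 5 smooth muscle markers (pregnant 16.2 to 45.3, cyclic 15.9 to 33.5), 4 of 5 endothelial markers (pregnant 5.63 to 17.4, cyclic 5.63 to 16.2), 8 leukocyte markers (pregnant 16.1 to 24.5, cyclic 17.1 to 26.3) and 3 of 4 erythroid markers (pregnant 1.62 to 3.04, cyclic 1.15 to 3.38). None of these was at 0 in every library. The part of these shifts in the values below was not tested, and in such bulk libraries fewer cells of a type and less RNA per cell cannot be told apart.

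As a set the translation factors were abundant, and their median spread between libraries was below that of all tested features. The 58 that reached a mean of 1 RPKM, the level required for testing, had a median level of 44.8 RPKM, against 11.7 RPKM over all 12834 features tested. Of them 14 (24.1%) averaged over 100 RPKM, against 4.29% of all tested features. The median ratio of the highest to the lowest library was 1.79 for the tested members and 2.14 for all tested features. EEF1A1_1, the main copy of the factor that brings aminoacyl-tRNA to the ribosome, was the third most abundant of all tested features, at a mean of 6216 RPKM. It made up 51.7% to 57.9% of the summed RPKM of the 62 members in each library. EIF4A2 (581 RPKM), EEF2 (483), EEF1G (477), EIF4B (314), EIF3E (311) and EEF1B (268) followed. The 4 untested members were EIF1_1 (mean level 0.465 RPKM), EIF4E1B, an eIF4E relative known from oocytes (mean level 0.127 RPKM), and EIF1AY and EEF1A2, both listed at 0 in every library.

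Between pregnant and cyclic libraries no member passed an adjusted p of 0.05 (limma, Benjamini-Hochberg over all 12834 features), and neither did any other feature. The smallest adjusted p was 0.0934, shared by 438 features, of which 5 were members: EIF4E and ETF1 with higher means in pregnant libraries, and EIF3F, EIF3C and EEF2 with lower means. At an unadjusted p under 0.05, 8 members (13.8%) were higher in pregnant libraries, beside 15.7% of all tested features, and 9 (15.5%) were lower, beside 11.9%. In 3 members, EIF4E, ETF1 and EIF2S1, every pregnant library lay above every cyclic one (5.17% of members, 4.91% of all features). In 2 members, EIF3F and EEF2, every pregnant library lay below (3.45% of members, 2.05% of all features). These shares were near those of the transcriptome at large. Positive differences were seen in 33 members (50.9% of all features were positive) and negative ones in 25 (49.1% of all features). Under upper-quartile scaling 5473 of all 12834 features were positive and 7361 negative, and 20 members were positive and 38 negative. Without that scaling, the log2 differences of the members (pregnant minus cyclic, on log2(RPKM + 1), which understates changes of low genes) ran from -0.65 to 0.84, with a median of 0.03, beside 0.01 for all features. Their median size was 0.17, against 0.24 for all features, and 9 members (15.5%) exceeded 0.5 in size, against 17% of all features. Scaling each library to its upper quartile in place of its total moved the median of all features to -0.07 and that of the members to -0.06. At an unadjusted p under 0.05 it gave 1326 of all features higher and 2230 lower, and 5 members higher and 12 lower. Without pregnant library 1 the number of members higher was 5, and without cyclic library 4, pregnant library 3 or pregnant library 5 the number of members lower was 5. With a library left out, the shares of all features at that p were not counted, so these counts stand without a background. The members without overlap came to 6 higher without cyclic library 3, and to 4 lower without cyclic library 1 or without pregnant library 4. Leaving a library out can only keep or raise such a count, for any feature. The shares of all features without overlap were not counted there either.

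**Figure D1:**
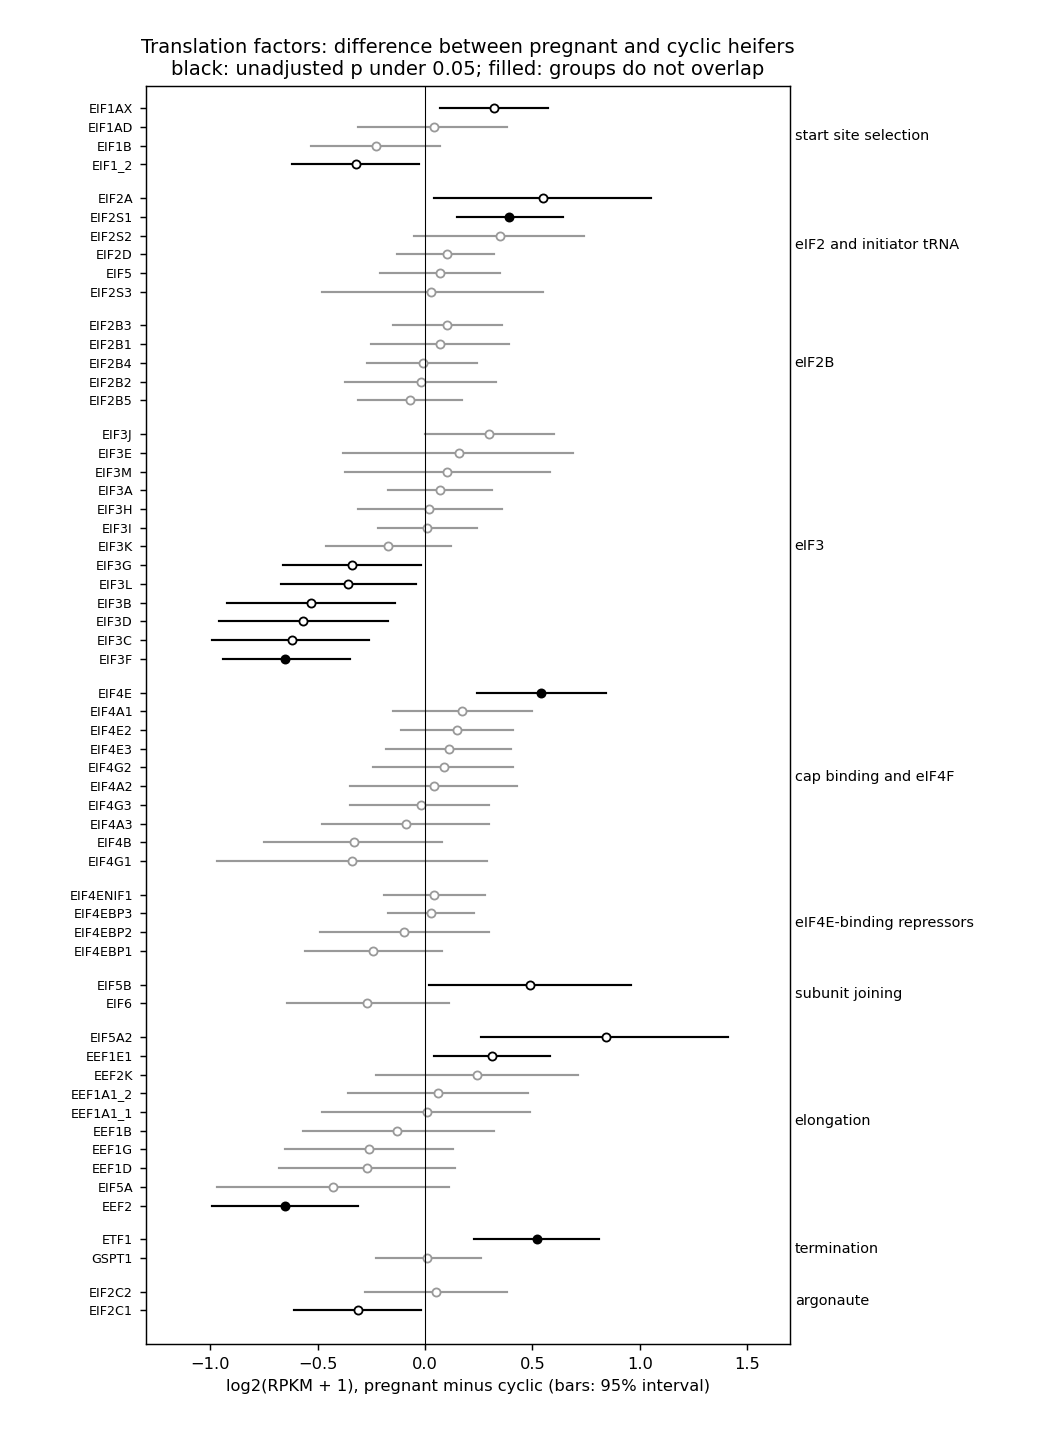
Difference in log2(RPKM + 1), pregnant minus cyclic, for the 58 tested members grouped by role, with 95% intervals from limma (5 libraries a group); black marks an unadjusted p under 0.05 and a filled point marks groups that do not overlap. The differences run from -0.65 for EIF3F and EEF2 to 0.84 for EIF5A2, and 6 of the 9 black points on the negative side are subunits of eIF3.

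Whether any member passed depended on single libraries. Without cyclic library 3, 7 members passed an adjusted p of 0.05 as higher in pregnant libraries (9.23% of all features did) and 4 as lower (8.02% of all features). The 7 were EIF4E, EIF2S1, ETF1, EIF1AX, EIF2S2, EIF5A2 and EIF2A, with adjusted p of 0.0327 to 0.0473 (limma). The 4 were EIF3F, EEF2, EIF3C and EIF3B, with adjusted p of 0.0323 to 0.0477. With a weight estimated for each library from its fit to the rest (0.313 for cyclic library 3 and 3.13 for pregnant library 3 at the extremes), 8 members were called higher (19% of all features) and 13 lower (18.3% of all features). All 11 members called without cyclic library 3 were among these 21. The weighted fit added EIF3J as higher and EIF1_2, EIF1B, EIF2C1, EIF3G, EIF3L, EIF4EBP1, EIF4G1, EIF5A and EIF6 as lower. That fit also left out the trend of variance with expression level that the main fit used. The part of that change in its calls was not tested. Without pregnant library 4 no member was called, although 0.171% of all features were called higher and 0.265% lower. The adjusted p values given below are those of all 10 libraries unless a library is named as left out.

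Values are given for libraries 1 to 5 of each group in turn, and means with their SD (n = 5 each). Among the factors that keep the small subunit open for scanning and set the accuracy of start codon choice, EIF1AX and EIF1_2 had differences of opposite sign. EIF1AX, which encodes eIF1A, had 93.7, 87.6, 80.3, 86.3 and 80.998 RPKM in pregnant libraries, against 57.6, 66.7, 80.9, 64.9 and 74.2 RPKM in cyclic libraries. Pregnant libraries lay above 4 of the 5 cyclic ones, and only cyclic library 3 reached into their range (log2 difference 0.32, SE 0.11, adjusted p = 0.113). EIF1_2, the abundant numbered copy of eIF1, had 178, 144, 165, 165 and 162 RPKM in pregnant libraries, against 153, 241, 195, 228 and 212 RPKM in cyclic libraries. Cyclic library 1 lay inside the pregnant range and the other cyclic libraries above it (log2 difference -0.32, SE 0.14, adjusted p = 0.156). EIF1B, a second eIF1 gene, averaged 27.4 ± 2.96 RPKM in pregnant and 32.6 ± 5.88 RPKM in cyclic libraries, and the log2 ratio of EIF1B to EIF1_2 overlapped between the groups, with means of -2.57 in pregnant and -2.66 in cyclic libraries. EIF1AD, named for a domain it shares with eIF1A, averaged 4.92 ± 0.968 RPKM in pregnant and 4.76 ± 0.865 RPKM in cyclic libraries. EIF1_1 stayed under 1 RPKM in every library, at 0.291 ± 0.178 RPKM in pregnant and 0.638 ± 0.271 RPKM in cyclic libraries.

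Of the genes of eIF2 and of the other proteins that handle the initiator tRNA, 2 of 6 (EIF2S1 and EIF2A) had an unadjusted p under 0.05, both higher in pregnant libraries. Of all features, 15.7% were higher at that p, and with 6 genes no excess is read from this count. The median log2 difference of the 6 was 0.22, or 0.14 under upper-quartile scaling. EIF2S1, the alpha subunit of eIF2 and the one that stress kinases phosphorylate, had 26.2, 24.2, 23.4, 23.3 and 23.6 RPKM in pregnant libraries, against 17.1, 18.996, 21.3, 14.7 and 19.01 RPKM in cyclic libraries. The groups did not overlap, and the gap was small: the highest cyclic library had 21.3 RPKM and the lowest pregnant one 23.3 RPKM (log2 difference 0.39, SE 0.11, adjusted p = 0.0952). EIF2S2, the beta subunit, had 63.6, 58.8, 63.5, 57.7 and 59.2 RPKM in pregnant libraries, against 44.2, 51.3, 73.6, 31.1 and 46.02 RPKM in cyclic libraries. Pregnant libraries were tightly grouped, while the cyclic ones ranged on both sides of them, library 3 being highest of all 10 and library 4 lowest (log2 difference 0.35, SE 0.18, adjusted p = 0.237). The EIF2S2 difference was 0.20 without cyclic library 4 and 0.50 without cyclic library 3. EIF2S3, the gamma subunit that binds GTP, averaged 135 ± 17.7 RPKM in pregnant and 139.7 ± 61.3 RPKM in cyclic libraries, with cyclic library 3 at 244 RPKM. On the log2 scale the EIF2S3 difference was 0.03 (-0.48 to 0.55), so its sign is not set. Per length the 3 subunits were far from equal: EIF2S3 averaged 6.49 times EIF2S1 over the 10 libraries, and the library ranges of the 3 did not overlap. EIF2A, a separate protein that can bring initiator tRNA to some mRNAs, had 45.2, 37.3, 44.1, 48.9 and 45.2 RPKM in pregnant libraries, against 34.96, 31.2, 46.1, 15.4 and 29.96 RPKM in cyclic libraries. Cyclic library 4 was lowest at 15.4 RPKM, and cyclic library 3 again lay among the pregnant ones (log2 difference 0.55, SE 0.23, adjusted p = 0.156). The EIF2A difference was 0.32 without cyclic library 4 and 0.70 without cyclic library 3. EIF2D, which also binds initiator tRNA, and EIF5, which triggers GTP hydrolysis by eIF2, differed by 0.10 and 0.07 on the log2 scale, with intervals of -0.13 to 0.32 and -0.21 to 0.35.

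The 5 subunits of eIF2B, the exchange factor that returns eIF2 to its GTP form, did not separate the groups. Their log2 differences lay between -0.07 and 0.10, and 0 of 5 had an unadjusted p under 0.05. EIF2B5, the catalytic epsilon subunit, averaged 15.5 ± 1.78 RPKM in pregnant and 16.2 ± 1.39 RPKM in cyclic libraries, with a 95% interval of the log2 difference of -0.31 to 0.17. The subunits were also close to each other in level, from 17.8 RPKM for EIF2B2 to 9.04 RPKM for EIF2B1, the alpha subunit. EIF2B1 was below each of the other 4 in every library.

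eIF3, the 13-subunit complex that binds the small ribosomal subunit and bridges it to eIF4G, held more of the low values than any other role. At an unadjusted p under 0.05, 6 of 13 subunits were lower in pregnant libraries and 0 were higher, beside 11.9% and 15.7% of all features. The 6 were EIF3F, EIF3C, EIF3D, EIF3B, EIF3L and EIF3G, and this count was 6 under both other scalings. It was 4 (EIF3B, EIF3C, EIF3D and EIF3F) without cyclic library 4, cyclic library 5, pregnant library 3 or pregnant library 5. The number of subunits higher also moved. Without cyclic library 3, 2 were higher and 5 lower. The number higher was 1 with library weights, with no filter on low values, with the library number as a block, without cyclic library 2 and without pregnant library 4. Shares of all features at that p were not counted for these settings or for left-out libraries. EIF3F, a regulatory subunit, had 51.6, 56.6, 57.5, 70.3 and 59.9 RPKM in pregnant libraries, against 78.3, 89.4, 88.7, 122 and 90.4 RPKM in cyclic libraries. No pregnant library reached the lowest cyclic one, and cyclic library 4 was well above the rest (log2 difference -0.65, SE 0.13, adjusted p = 0.0934). EIF3C, a core subunit, had 32.02, 29.2, 30.9, 42.8 and 31.97 RPKM in pregnant libraries, against 35.9, 51.8, 49.6, 68.8 and 56.8 RPKM in cyclic libraries. Only pregnant library 4 entered the cyclic range, above cyclic library 1 (log2 difference -0.62, SE 0.17, adjusted p = 0.0934). The reference gene table gives EIF3C as another name of EIF3CL, so reads of a near-identical locus may be divided here. EIF3D, a subunit that can itself bind the cap of some mRNAs, had 57.2, 94.5, 80.7, 69.8 and 85.8 RPKM in pregnant libraries, against 101, 107, 161, 122 and 88.9 RPKM in cyclic libraries. Cyclic library 5 lay between the pregnant libraries and cyclic library 3 was highest (log2 difference -0.57, SE 0.18, adjusted p = 0.101). The EIF3D difference was -0.44 without cyclic library 3 and -0.37 with library weights.

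EIF3B, a core scaffold that binds EIF3A, had 20.1, 16.7, 17.7, 25.8 and 15.1 RPKM in pregnant libraries, against 21.3, 29.9, 22.1, 36.9 and 30.4 RPKM in cyclic libraries. Pregnant library 4 was again the one inside the cyclic range (log2 difference -0.53, SE 0.18, adjusted p = 0.108). EIF3L, a subunit outside the core shared with yeast, had 40.9, 39.3, 32.7, 45.7 and 34.3 RPKM in pregnant libraries, against 39.6, 43.7, 48.9, 63.9 and 53.6 RPKM in cyclic libraries. Pregnant libraries 1 and 4 overlapped cyclic libraries 1 and 2, and cyclic library 4 was highest (log2 difference -0.36, SE 0.15, adjusted p = 0.147). EIF3G, an RNA-binding core subunit, had 54.5, 58.4, 51.4, 73.5 and 57.4 RPKM in pregnant libraries, against 54.7, 73.5, 80.8, 88.7 and 78.3 RPKM in cyclic libraries. Cyclic libraries 1 and 2 fell within the pregnant range, library 2 level with pregnant library 4 (log2 difference -0.34, SE 0.15, adjusted p = 0.164). None of the other 7 subunits had an unadjusted p under 0.05. EIF3J, a loosely attached subunit near the decoding site, had 52.9, 53.02, 61.8, 49.5 and 55.3 RPKM in pregnant libraries, against 42.5, 49.8, 56.8, 34.01 and 40.7 RPKM in cyclic libraries. The EIF3J means stood the other way round, with cyclic libraries 2 and 3 inside the pregnant range (log2 difference 0.30, SE 0.14, adjusted p = 0.187). EIF3E, the most abundant subunit, had 260.0, 381, 299, 270.2 and 396 RPKM in pregnant libraries, against 301, 284, 502, 186 and 229.7 RPKM in cyclic libraries. Here the 5 cyclic libraries spanned the whole pregnant range, so the groups could not be separated (log2 difference 0.16, SE 0.24, adjusted p = 0.704). The EIF3E difference was 0.0048 without cyclic library 4 and 0.36 without cyclic library 3. EIF3A, the largest scaffold subunit, had a log2 difference of 0.07 with an interval of -0.17 to 0.31, EIF3I one of 0.01 (-0.22 to 0.24), EIF3H one of 0.02 (-0.31 to 0.36), EIF3K one of -0.17 (-0.46 to 0.12) and EIF3M one of 0.10 (-0.37 to 0.58).

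The subunits of this one complex differed 13.2-fold in level, from 311 RPKM for EIF3E to 23.6 RPKM for EIF3B. The order of means over the 10 libraries was EIF3E, EIF3M, EIF3H, EIF3K, EIF3D, EIF3F, EIF3I, EIF3G, EIF3A, EIF3J, EIF3L, EIF3C and EIF3B. The library ranges of neighbours in this order overlapped throughout. EIF3I and EIF3A were the steadiest subunits, with highest-to-lowest library ratios of 1.29 and 1.34, and EIF3D (2.82) and EIF3E (2.71) the least steady.

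**Figure D2:**
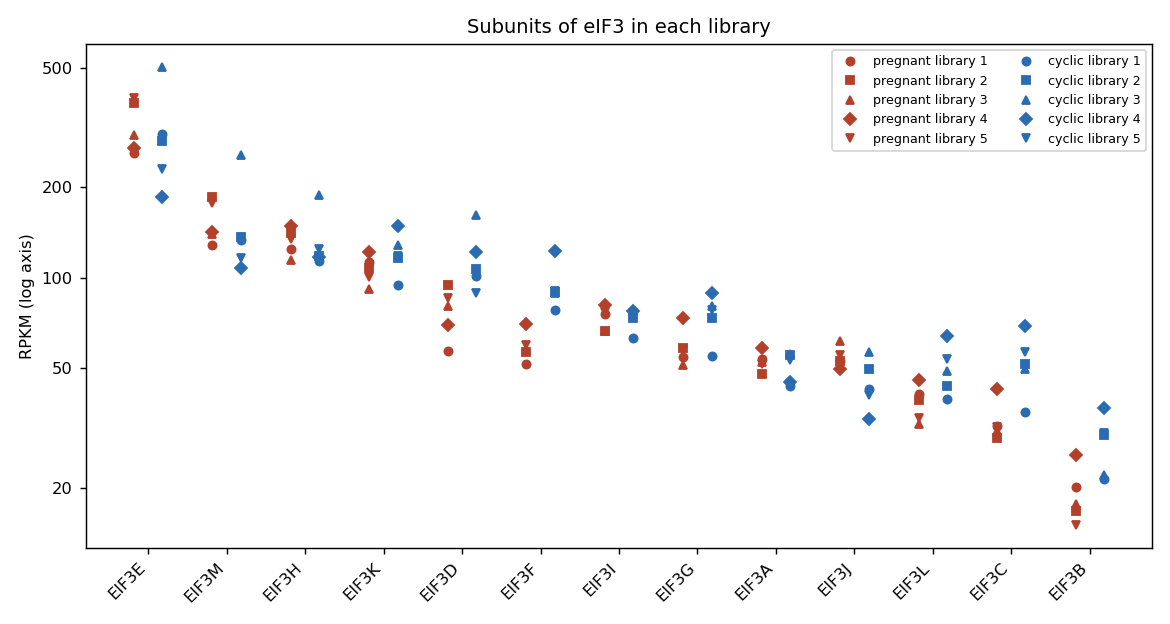
RPKM of the 13 subunits of eIF3 in each library on a log axis, ordered by mean level, with pregnant libraries in red on the left of each pair and cyclic libraries in blue. For EIF3F all 5 pregnant libraries (51.6 to 70.3 RPKM) lie below all 5 cyclic ones (78.3 to 122 RPKM), and cyclic library 3 is the top point for EIF3E, EIF3M, EIF3H and EIF3D.

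Of the genes of cap recognition, EIF4E had the largest difference of the 10 tested and the only unadjusted p under 0.05. EIF4E, which binds the mRNA cap and is the point at which the 4E-binding proteins act, had 44.9, 38.3, 43.999, 48.1 and 42.2 RPKM in pregnant libraries, against 24.1, 28.4, 35.8, 25.2 and 36.6 RPKM in cyclic libraries. All 5 pregnant libraries lay above all 5 cyclic ones, and the means were 43.5 ± 3.59 RPKM in pregnant and 30.02 ± 5.85 RPKM in cyclic libraries (log2 difference 0.54, SE 0.14, adjusted p = 0.0934). EIF4E2, a relative that can repress translation from the cap, averaged 41.5 ± 5.14 RPKM in pregnant and 37.3 ± 4.30 RPKM in cyclic libraries, with a log2 difference of 0.15 and an interval of -0.11 to 0.41. EIF4E3, another cap-binding relative, averaged 62.5 ± 10.3 RPKM in pregnant and 57.4 ± 6.22 RPKM in cyclic libraries, with a log2 difference of 0.11 and an interval of -0.18 to 0.40. Within a library, the log2 ratio of EIF4E2 to EIF4E averaged -0.07 ± 0.16 in pregnant and 0.33 ± 0.30 in cyclic libraries, overlapping through cyclic library 3 alone, at -0.17. That of EIF4E3 to EIF4E averaged 0.51 ± 0.34 in pregnant and 0.95 ± 0.27 in cyclic libraries, also with overlap.

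The helicase and scaffold genes did not separate the groups. EIF4A2, the more abundant of the eIF4A helicase genes, had 497, 605, 602, 534 and 675 RPKM in pregnant libraries, against 468, 499, 843, 591 and 493 RPKM in cyclic libraries. Cyclic library 3 was highest and cyclic library 1 lowest, on either side of all pregnant libraries. The log2 difference of 0.04 (SE 0.18) for EIF4A2 was -0.05 under upper-quartile scaling. EIF4A1 averaged 119 ± 17.4 RPKM in pregnant and 106 ± 18.2 RPKM in cyclic libraries, and EIF4A2 exceeded it 3.73 to 9.48 times in individual libraries. EIF4A3, the relative that anchors the exon junction complex on spliced mRNA, averaged 43.7 ± 8.31 RPKM in pregnant and 46.8 ± 10.7 RPKM in cyclic libraries. EIF4B, which stimulates the helicase, had 241, 298, 267, 261 and 294 RPKM in pregnant libraries, against 263, 292, 529.8, 402 and 288 RPKM in cyclic libraries. The pregnant libraries were alike, and cyclic libraries 3 and 4 stood far above the other cyclic ones (log2 difference -0.33, SE 0.19, adjusted p = 0.264). With cyclic library 3 left out, the EIF4B difference was -0.18, and with library weights it was -0.14. EIF4G1, the main scaffold, averaged 31.3 ± 9.60 RPKM in pregnant and 41.5 ± 16.5 RPKM in cyclic libraries, and its highest and lowest libraries differed 2.87-fold. EIF4G3, its close relative, averaged 23.6 ± 3.66 RPKM in pregnant and 23.97 ± 4.20 RPKM in cyclic libraries, and EIF4G2, a relative without an eIF4E-binding site, 218 ± 21.4 RPKM in pregnant and 208 ± 38.99 RPKM in cyclic libraries. The log2 ratio of EIF4G2 to EIF4G1, a pair added after the values had been seen, averaged 2.84 ± 0.55 in pregnant and 2.41 ± 0.70 in cyclic libraries. That of EIF4G3 to EIF4G1 averaged -0.38 ± 0.24 in pregnant and -0.70 ± 0.51 in cyclic libraries.

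**Figure D3:**
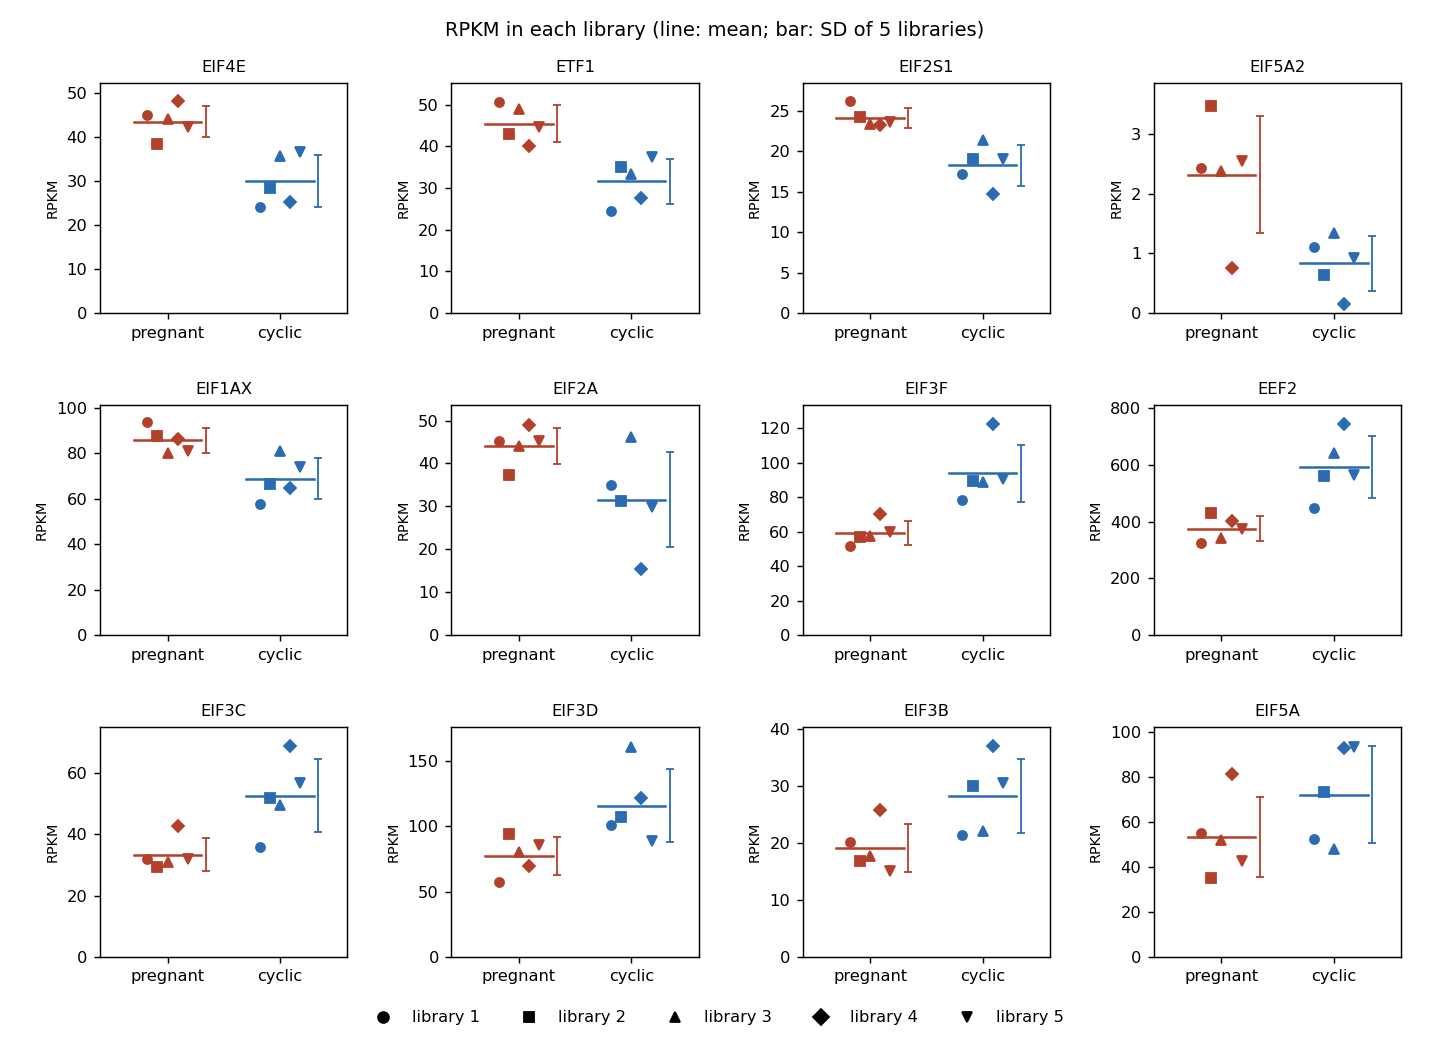
RPKM of 12 members in each library (symbols mark libraries 1 to 5; line, mean; bar, SD; n = 5 a group), pregnant on the left of each panel. The groups do not overlap for EIF4E, ETF1, EIF2S1, EIF3F and EEF2, and overlap through 1 or more libraries for the others shown, such as pregnant library 4 for EIF5A2 (0.761 RPKM) and EIF3C (42.8 RPKM).

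None of the 4 repressors that bind eIF4E had an unadjusted p under 0.05. EIF4EBP1, the best known mTORC1-controlled repressor of eIF4E, had 27.2, 33.97, 30.5, 30.5 and 26.9 RPKM in pregnant libraries, against 27.5, 47.99, 37.7, 31.2 and 35.5 RPKM in cyclic libraries. Cyclic libraries 1 and 4 lay inside the pregnant range (log2 difference -0.24, SE 0.15, adjusted p = 0.291). The EIF4EBP1 difference was -0.13 without cyclic library 2 and -0.41 with library weights (adjusted p = 0.0357). EIF4EBP2, a second repressor of the same family, had 46.7, 56.03, 51.8, 42.1 and 57.8 RPKM in pregnant libraries, against 38.7, 46.3, 58.7, 80.8 and 54.5 RPKM in cyclic libraries. The widest values belonged to the cyclic group, with library 4 highest and library 1 lowest. The log2 difference of -0.10 (SE 0.18) for EIF4EBP2 was 0.06 with library weights and 0.05 without cyclic library 4. EIF4ENIF1, which carries eIF4E into the nucleus and represses its mRNAs, had a log2 difference of 0.04 and an interval of -0.19 to 0.28. For EIF4EBP3 the difference was 0.03 (-0.17 to 0.23). The gene length recovered for the EIF4EBP3 feature was 8848 bases and the gene borders ANKHD1 in the reference gene table, so that value may not be EIF4EBP3 alone.

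The ratio of EIF4EBP1 to EIF4E, chosen after the values had been seen, separated the groups. The log2 ratio was -0.72, -0.17, -0.53, -0.66 and -0.65 in pregnant libraries, against 0.19, 0.76, 0.07, 0.31 and -0.04 in cyclic libraries. EIF4EBP1 was thus below EIF4E in all 5 pregnant libraries and above it in 4 of 5 cyclic ones, with means of -0.55 ± 0.22 in pregnant and 0.26 ± 0.31 in cyclic libraries (SD, n = 5 each). Since EIF4E alone had been seen not to overlap, no test was made of this ratio. The ratio of EIF4EBP1 to EIF4EBP2 did overlap, with means of -0.77 ± 0.23 in pregnant and -0.61 ± 0.51 in cyclic libraries.

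**Figure D4:**
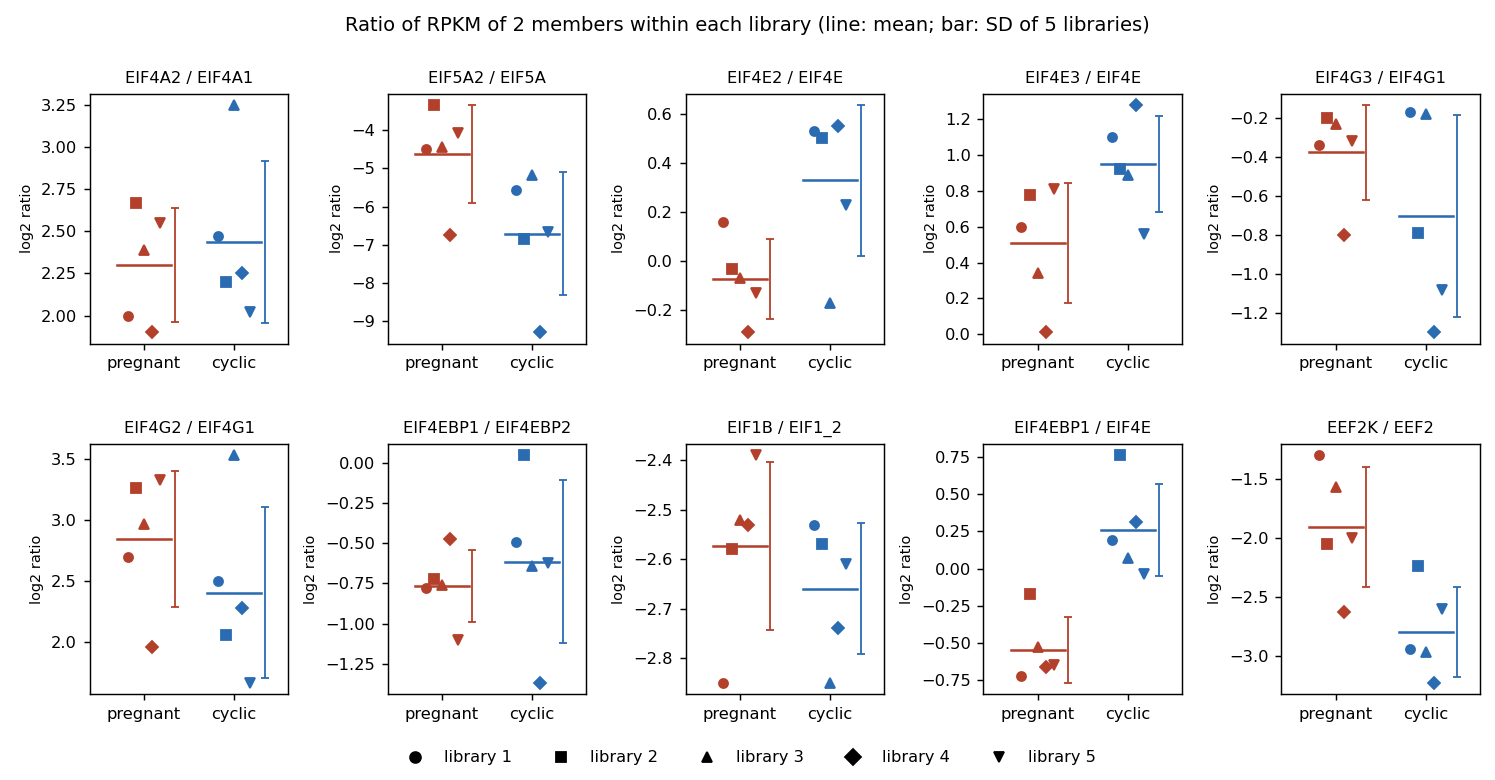
Log2 ratio of RPKM of 10 pairs of members within each library (symbols mark libraries 1 to 5; line, mean; bar, SD; n = 5 a group), pregnant on the left of each panel. Only the ratio of EIF4EBP1 to EIF4E shows no overlap, with -0.72 to -0.17 in pregnant and -0.04 to 0.76 in cyclic libraries.

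The joining of the large ribosomal subunit involves a GTPase and a guard. EIF5B, the GTPase that joins the subunits, had 17.7, 13.7, 16.2, 19.3 and 15.2 RPKM in pregnant libraries, against 11.4, 15.05, 9.99, 6.35 and 16.7 RPKM in cyclic libraries. Cyclic libraries were uneven, from 6.35 RPKM in library 4 to 16.7 RPKM in library 5, and libraries 2 and 5 lay inside the pregnant range (log2 difference 0.49, SE 0.21, adjusted p = 0.167). The EIF5B difference was 0.30 without cyclic library 4 and 0.16 with library weights. EIF6, which keeps free large subunits from joining too early, had 18.5, 15.01, 16.4, 21.2 and 15.4 RPKM in pregnant libraries, against 17.2, 23.8, 14.8, 27.5 and 23.6 RPKM in cyclic libraries. Cyclic library 3 was the lowest of all 10, library 1 lay within the pregnant range and the other 3 above it (log2 difference -0.27, SE 0.17, adjusted p = 0.318). The difference for EIF6 was -0.17 without cyclic library 4 and -0.44 with library weights.

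Among the elongation factors, EEF2 separated the groups and EEF1A1_1 did not; the difference between the 2 was not tested. EEF1A1_1, the delivery factor eEF1A, had 5547, 6953, 5437, 6700.4 and 6249.5 RPKM in pregnant libraries, against 4921, 5496, 8953, 6028 and 5880.3 RPKM in cyclic libraries. Cyclic library 3 was far above every other library and cyclic library 1 was lowest. The log2 difference of 0.01 (SE 0.22) for EEF1A1_1 was -0.08 under upper-quartile scaling, -0.01 under median-ratio scaling and 0.14 without cyclic library 3. EEF1A1_2, the other numbered copy, averaged 1.38 ± 0.700 RPKM in pregnant and 1.21 ± 0.203 RPKM in cyclic libraries, on 31 to 94 recovered reads a library. The exchange factor that reloads eEF1A with GTP has the subunits EEF1B, EEF1D and EEF1G. EEF1G, its gamma subunit, had 378, 496, 341, 514 and 433 RPKM in pregnant libraries, against 420.3, 423, 672, 592 and 498 RPKM in cyclic libraries. Both groups spread widely and overlapped (log2 difference -0.26, SE 0.18, adjusted p = 0.349). The EEF1G difference was -0.16 without cyclic library 3. EEF1B averaged 252 ± 36.8 RPKM in pregnant and 284 ± 96.1 RPKM in cyclic libraries, and EEF1D 73.6 ± 21.04 RPKM in pregnant and 87.8 ± 15.8 RPKM in cyclic libraries, with log2 differences of -0.13 (-0.57 to 0.32) and -0.27 (-0.68 to 0.14). EEF1E1, which is part of the complex of tRNA synthetases, had 11.9, 9.71, 10.6, 13.5 and 10.7 RPKM in pregnant libraries, against 7.61, 9.35, 8.55, 8.50 and 10.6 RPKM in cyclic libraries. Cyclic library 5 lay inside the pregnant range and the other cyclic libraries below it (log2 difference 0.31, SE 0.12, adjusted p = 0.143). The EEF1E1 difference was 0.17 with library weights.

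EEF2, the GTPase that moves the ribosome by a codon, had 324, 431, 341, 402 and 376 RPKM in pregnant libraries, against 448, 563, 642, 744 and 565 RPKM in cyclic libraries. No pregnant library reached the lowest cyclic one, and the means were 375 ± 43.8 RPKM in pregnant and 592 ± 109.7 RPKM in cyclic libraries (log2 difference -0.65, SE 0.16, adjusted p = 0.0934). EEF2K, the kinase that switches eEF2 off, had 131, 104, 115, 64.9 and 94.1 RPKM in pregnant libraries, against 58.2, 119, 82.1, 79.3 and 93.1 RPKM in cyclic libraries. The groups overlapped, with pregnant library 4 near the bottom of both (log2 difference 0.24, SE 0.21, adjusted p = 0.487). The EEF2K difference was 0.11 without cyclic library 1, 0.14 without pregnant library 1, 0.36 without cyclic library 2, 0.39 without pregnant library 4 and 0.10 with library weights. The log2 ratio of EEF2K to EEF2, also added after the values had been seen, averaged -1.91 ± 0.51 in pregnant and -2.80 ± 0.38 in cyclic libraries. The groups overlapped in that ratio, since pregnant library 4 (-2.63) lay below cyclic libraries 2 (-2.24) and 5 (-2.60).

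eIF5A is the carrier of hypusine, an amino acid made on this protein alone, and has a main gene and a scarce relative. EIF5A, the main gene, had 55.03, 35.2, 52.05, 81.7 and 42.8 RPKM in pregnant libraries, against 52.6, 73.5, 48.04, 93.3 and 93.5 RPKM in cyclic libraries. The groups overlapped widely (log2 difference -0.43, SE 0.25, adjusted p = 0.271). The EIF5A difference was -0.60 without pregnant library 4 and -0.30 without pregnant library 2. EIF5A2, the scarce relative, had 2.43, 3.47, 2.39, 0.761 and 2.55 RPKM in pregnant libraries, against 1.12, 0.641, 1.34, 0.149 and 0.925 RPKM in cyclic libraries. All pregnant libraries but library 4 lay above all cyclic ones (log2 difference 0.84, SE 0.26, adjusted p = 0.101). These levels rested on 29, 52, 28, 9 and 46 recovered reads in pregnant libraries, against 13, 8, 17, 1 and 12 in cyclic libraries. The EIF5A2 difference depended on the constant added before the logarithm, at 1.46 with 0.1 in place of 1. It ranged from 0.68 without cyclic library 4 to 1.05 without pregnant library 4. The ratio of EIF5A2 to EIF5A stayed below 0.1 in every library, with mean log2 ratios of -4.62 ± 1.28 in pregnant and -6.70 ± 1.61 in cyclic libraries.

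Of the termination factors, ETF1 separated the groups and GSPT1 did not. ETF1, which encodes eRF1, the protein that reads all stop codons, had 50.7, 43.05, 48.8, 39.95 and 44.7 RPKM in pregnant libraries, against 24.4, 35.1, 33.4, 27.6 and 37.5 RPKM in cyclic libraries. Each pregnant library exceeded each cyclic one, and the means were 45.4 ± 4.34 RPKM in pregnant and 31.6 ± 5.44 RPKM in cyclic libraries (log2 difference 0.52, SE 0.13, adjusted p = 0.0934). GSPT1, which encodes the partner GTPase eRF3, had 26.7, 24.4, 27.3, 26.6 and 25.05 RPKM in pregnant libraries, against 20.005, 26.4, 27.4, 28.6 and 27.3 RPKM in cyclic libraries. Apart from cyclic library 1, which was low, the 9 remaining libraries spanned 24.4 to 28.6 RPKM. The log2 difference of 0.01 (SE 0.11) for GSPT1 was -0.07 under upper-quartile scaling and also -0.07 without cyclic library 1. The 95% interval for GSPT1 was -0.23 to 0.26.

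A pair of members carry translation factor symbols but encode argonautes, the proteins that hold small RNAs. EIF2C1, also known as AGO1, had 9.26, 8.14, 7.28, 7.91 and 6.14 RPKM in pregnant libraries, against 9.05, 9.36, 9.27, 12.6 and 9.11 RPKM in cyclic libraries. Only pregnant library 1 reached into the cyclic range, and cyclic library 4 was highest (log2 difference -0.31, SE 0.13, adjusted p = 0.157). EIF2C2, also known as AGO2 and the argonaute able to cut its target, averaged 5.92 ± 0.973 RPKM in pregnant and 5.69 ± 1.05 RPKM in cyclic libraries, with a log2 difference of 0.05 and an interval of -0.28 to 0.38.

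A few libraries held most of the members' extreme values. Cyclic library 1 was the lowest of the 10 libraries for 19 of the 58 tested members (32.8%, against 13.7% of all tested features) and the highest for 0. In that library the most abundant feature of the table, ENSBTAG00000047264, stood at 26134 RPKM, against 6411 to 10866 RPKM in pregnant and 7168 to 13884 RPKM in the other cyclic libraries, and the summed RPKM of all features was the lowest. Cyclic library 3 was highest for 12 members (20.7%, against 9.59% of all features), and pregnant library 4 for 13 (22.4%, against 10.6%). Cyclic library 4 was highest for 14 members (24.1%, against 20.8% of all features) and lowest for 10 (17.2%, against 22.8%). The 9 members best known as mRNAs with a 5′ terminal oligopyrimidine tract, the mark of transcripts controlled along with ribosomal proteins, were picked after the values had been seen. They are EEF1A1_1, EEF1B, EEF1D, EEF1G, EEF2, EIF3E, EIF3F, EIF3H and EIF4B. In cyclic library 3 their median log2 deviation from the 10-library mean was 0.52, and that of 64 ribosomal protein genes was 0.55. In cyclic library 1 the medians were -0.21 for those 9 members and -0.39 for the ribosomal protein genes. The same medians were -0.29 and -0.31 in pregnant library 3, and -0.26 and -0.09 in pregnant library 1. In the other libraries they lay between -0.07 and 0.24 for the 9 members and between -0.09 and 0.28 for the ribosomal protein genes. The part of library composition in the group differences was not tested beyond leaving libraries out.

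**Figure D5:**
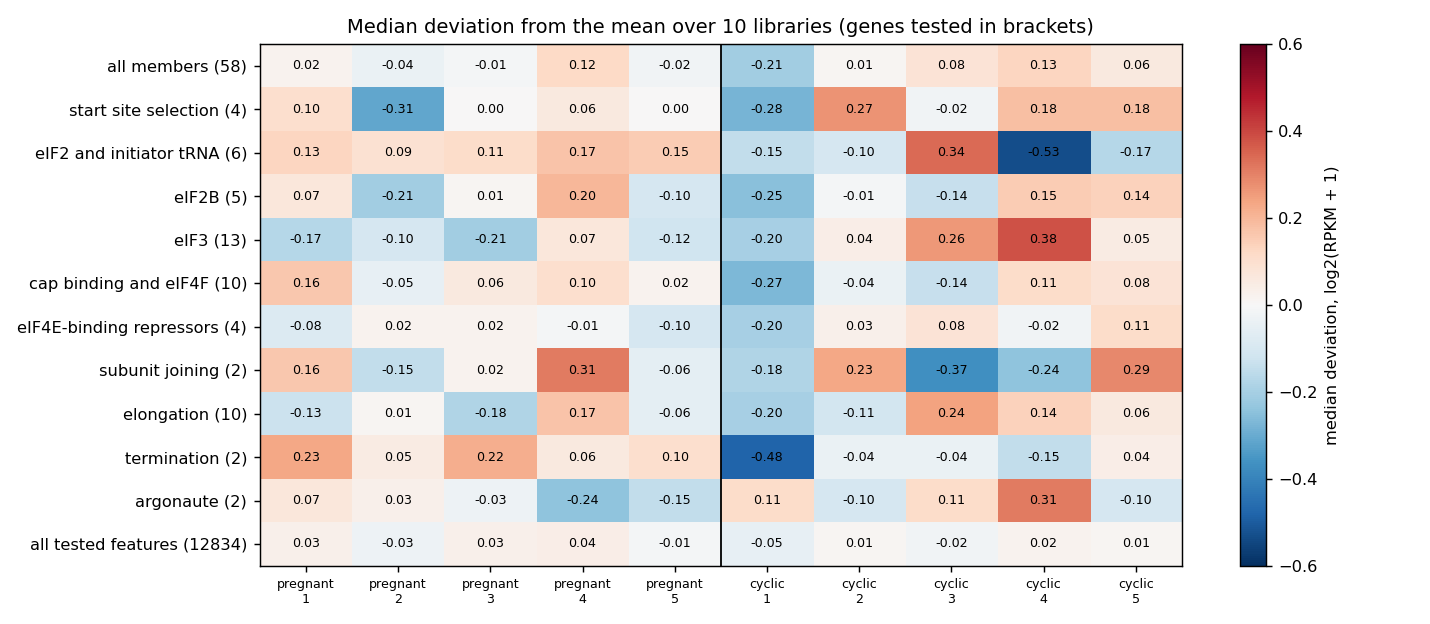
Median deviation of log2(RPKM + 1) from the 10-library mean, for the tested members of each role and for all tested features, in each library. Cyclic library 1 is below its mean in 9 of the 10 roles, the eIF2 role is at -0.53 in cyclic library 4 and at 0.34 in cyclic library 3, and the eIF3 role is negative in 4 of 5 pregnant libraries.

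Genes that act on or beside these factors were counted from lists of known members. No list gene passed an adjusted p of 0.05. Of the kinases and targets of the integrated stress response, which phosphorylation of EIF2S1 starts, 11 were tested, with 0 higher and 2 lower at an unadjusted p under 0.05 and a median log2 difference of 0.01. The 2 lower were ATF3, a stress-induced transcription factor (log2 difference -0.53, SE 0.19), and PPP1R15A, which directs the phosphatase that restores eIF2 (-0.39, SE 0.15). EIF2AK2, the kinase PKR that senses double-stranded RNA, had the next smallest p, with a difference of 0.59 (SE 0.29). In the mTORC1 and MNK list, 15 genes were tested, with 2 higher and 1 lower and a median of -0.13. Regardless of p, 5 of the 15 differences were positive and 10 negative. RPS6KB1, the S6 kinase downstream of mTORC1 (0.59, SE 0.19), and RHEB, its activator (0.23, SE 0.10, no overlap), were higher. TSC2, which switches RHEB off (-0.70, SE 0.21), was lower.

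Of 8 poly(A)-binding proteins and partners, 3 were higher and 2 lower at an unadjusted p under 0.05, with a median of 0.22. LARP4, which binds poly(A) and stabilises mRNA, averaged 13.3 ± 1.54 RPKM in pregnant and 8.11 ± 1.69 RPKM in cyclic libraries without overlap (log2 difference 0.67, adjusted p = 0.0934). PABPC4 was lower without overlap (-0.31, SE 0.09), and PAIP2, which takes PABP off poly(A), was higher (0.38, SE 0.15). Among 10 genes of subunit joining, rescue and recycling, 3 were higher and 0 lower, with a median of 0.20. These 3 did not overlap between the groups: ABCE1, which splits spent ribosomes, averaged 24.6 ± 1.95 RPKM in pregnant and 16.8 ± 3.35 RPKM in cyclic libraries, HBS1L, a rescue GTPase, 40.7 ± 1.33 RPKM in pregnant and 27.6 ± 6.82 RPKM in cyclic libraries, and DHX29, a scanning helicase, 18.9 ± 0.826 RPKM in pregnant and 13.4 ± 3.44 RPKM in cyclic libraries. Of 9 genes that make hypusine on eIF5A or diphthamide on eEF2, 2 were higher and 0 lower, with a median of 0.07. Both belong to diphthamide synthesis, DNAJC24 (0.71, SE 0.24, no overlap) and DPH5 (0.49, SE 0.13), while DHPS, the first enzyme of hypusine synthesis, had a difference of -0.24 (SE 0.14). Of 8 tested mitochondrial translation factors 5 were higher and 0 lower, with a median of 0.33, the highest of these lists. The smallest p values were those of MTRF1L, a mitochondrial release factor (0.47, SE 0.15, no overlap), GFM2, which recycles mitochondrial ribosomes (0.37, SE 0.13), and MTIF2, the mitochondrial initiation factor (0.41, SE 0.14). Of all features, 15.7% were higher and 11.9% lower at an unadjusted p under 0.05, and 4.91% were higher and 2.05% lower without overlap.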

How the data were processed

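Isthmic oviduct epithelial cells were profiled by stranded poly(A) RNA sequencing, 5 pregnant and 5 cyclic libraries, grouped by the treatment label. The authors deposited 1 table of 24596 features, and the deposited values behave as RPKM although the header calls them only expression. For aligner, counter, build and annotation, a name was not given in the sources used here. Where the design had foreseen counts, the test for normalised values was used. Library totals and gene lengths were recovered by searching for those that turn the RPKM of a feature into whole reads (tolerance 0.02 reads, lengths up to 12000 bases). This resolved 12789 of 12834 tested features (99.65%), 0.6% of 500 jittered features, and gave the annotated length for 7 of 7 mitochondrial protein genes. One read on a 1 kb gene is worth 0.0383 to 0.103 RPKM. Totals averaged 19.8 ± 4.02 M reads in pregnant and 16.4 ± 3.79 M in cyclic libraries (SD, n = 5 each; two-sided exact permutation p = 0.254 over 252 assignments).

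Features averaging at least 1 RPKM were tested with limma-trend (R 4.3.3, limma 3.58.1) on their log2(RPKM + 1), with Benjamini-Hochberg adjustment over all 12834 at 0.05. Tables and figures used matplotlib 3.10.9, pandas 2.3.3 and numpy 2.4.6 under Python 3.11.15. The members and lists were chosen with earlier results of these data known. Members given by library are up to 10 per direction with the smallest p, the 6 most abundant, and EIF4E, EIF4EBP1, EIF4EBP2, EIF2S1, EEF2K, EIF5A, EIF6, ETF1 and GSPT1, with up to 3 genes of smallest p per list. Alternatives were a pseudocount of 0.1, no filter and a minimum of 5 RPKM, median-ratio and upper-quartile scaling, library weights, voom on recovered reads, a threshold of 0.1, the library number as a block, and each library left out. The fit with library weights was made without the limma trend. Gene names and synonyms came from RefSeq (ARS-UCD2.0). Sequence was not used here.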

Additional observations from a re-analysis of the deposited data

Results flagged for a closer look

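In each group of 5 libraries, the gap of the highest or lowest library to its nearest neighbour was compared with the range of the group, at Dixon's critical value of 0.71. Of 116 groups (58 tested members in 2 conditions), 10 held such a library, or 8.62%. The rule is set to mark about 5% of groups of independent, normally distributed values. The members share the same libraries and the share over all features was not counted, so no excess is read from this. Pregnant library 4 stood apart in 3 members. It was high for EIF3C (42.8 RPKM) and EEF1D (110.3 RPKM) and low for EIF2C2 (4.22 RPKM). Cyclic library 3 was high in 3 members, EEF1A1_1 (8953 RPKM), EIF3H (188.7 RPKM) and EIF3M (255 RPKM). Cyclic library 4 was high for EIF3F (122 RPKM) and EIF2C1 (12.6 RPKM). Cyclic library 1 was low for EIF3I (62.8 RPKM) and GSPT1 (20 RPKM). With the library that stood apart left out, the EIF3C difference was -0.71 (without pregnant library 4) and the EIF3F difference was -0.55 (without cyclic library 4), against -0.62 and -0.65 with all libraries.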

How the results depend on the processing

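No member and no other feature passed an adjusted p of 0.05 with all 10 libraries, and that held for the other scalings, filters and pseudocount, for voom on recovered reads and for the library number as a block. The fit with estimated library weights, made without the limma trend, gave 8 members higher and 13 lower (2436 and 2353 of all features). A threshold of 0.1 gave 3 and 3 (574 and 444). With 1 library left out, members called ran from 0 to 7 higher and 0 to 4 lower, and all features from 0 to 1184 and 0 to 1029; the highest values are those without cyclic library 3, and leaving out pregnant library 4 gave 22 and 34 features. Members without overlap ran from 3 to 6 higher and 2 to 4 lower with 1 library left out, and upper-quartile scaling gave 4 lower. Leaving a library out cannot lower such a count. The lower ends of 3 and 2 are thus those of all 10 libraries and show no stability. At an unadjusted p under 0.05, leaving out 1 library gave 5 to 10 members higher and 5 to 12 lower, upper-quartile scaling 5 higher, and library weights 15 lower. Shares of all features at that p were not counted for left-out libraries, for library weights or for the block below. With the library number as a replicate block there were 0 calls, 7 members on each side at an unadjusted p under 0.05, and a median difference of 0.028, as without it. Correlations of same-numbered libraries across the groups were -0.34 to 0.28, and those of libraries with unlike numbers -0.38 to 0.45. The labels give no pairing, and these correlations cannot settle whether there was one. Signs turned for members near 0. EEF1A1_1 was -0.01 under median-ratio and -0.08 under upper-quartile scaling, and -0.07 to 0.14 with 1 library left out. EIF4A2 was -0.05 under upper-quartile scaling and -0.03 to 0.18 with 1 library left out. EIF4EBP2 was 0.06 with library weights and -0.21 to 0.05 with 1 library left out. GSPT1 was -0.0045 under median-ratio scaling, -0.0043 with library weights, -0.07 under upper-quartile scaling, and -0.07 to 0.05 with 1 library left out. The other members given by library kept their direction in every setting. Signs of further members turned under upper-quartile scaling, where 20 of the 58 tested differences were positive, against 33 without it. Depth limits EIF5A2, with 1 to 52 reads. The cause of these shifts was not tested.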
